A study of Mus musculus with 8 samples.

Results

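Transcript levels of 10 genes that hold back or drive entry into the cell cycle were followed in hearts of mouse fetuses with or without DIO3, the type 3 deiodinase, the enzyme that inactivates thyroid hormone. The genes were *Cdkn1a*, *Cdkn1b* and *Cdkn1c* of the CIP/KIP family of cyclin-dependent kinase (CDK) inhibitors, *Cdkn2a*, *Cdkn2c* and *Cdkn2d* of the INK4 family, the D cyclin genes *Ccnd1*, *Ccnd2* and *Ccnd3*, and the homeobox gene *Meis1*. They were taken by symbol, with earlier results of these data known, and they held 28 of the 51414 transcript rows and 10 of the 26590 gene symbols in the table. For each gene the row with the highest average of both genotype means is given first, and its other rows are given beside it. A row was tested where its mean exceeded 1 RPKM (a read level per length of the transcript and per depth of the library) in at least 1 genotype, which held for 9 of the 10 genes and 26 of their 28 rows, out of 14657 genes and 32703 rows tested in all.

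D cyclins bind and activate CDK4 and CDK6, which phosphorylate the retinoblastoma protein and release E2F factors that switch on genes for DNA replication. INK4 proteins bind CDK4 and CDK6 and keep D cyclins off them, whereas CIP/KIP proteins bind whole cyclin-CDK complexes and inhibit those with CDK2. Fetal cardiomyocytes divide and largely stop doing so after birth, and *Meis1* is known in the heart for raising CDK inhibitor genes as that happens.

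RNA was sequenced after removal of ribosomal RNA from 4 Dio3+/+ and 4 Dio3-/- hearts on the C57BL/6J strain, each from an individual fetus. The Dio3-/- fetuses lack DIO3 in every tissue and not in the heart alone, and whole hearts with all their cell types were taken. Sample titles placed all 8 hearts at E13.5 (counted in embryonic days), but the age field of Dio3-/- hearts 3 and 4 read E18.5, and the study's methods name yet another fetal day. The deposited table gave a mean and a coefficient of variation (CV) for each genotype and no value of a single heart, so these 2 hearts could not be left out, the overlap of the genotypes heart by heart could not be given, and the table holds no read total of any library.

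Checks of the labels were as follows. *Dio3* itself averaged 0.35 RPKM (CV 1.23) in the Dio3+/+ group and 0.13 RPKM (CV 0.76) in the Dio3-/- group, too low to check the genotype (limma adjusted p = 0.589 without the expression filter). The series text calls the fetuses male. Yet *Xist*, which is transcribed from the inactive X chromosome, averaged 35.6 RPKM (CV 0.99) in Dio3+/+ and 40.0 RPKM (CV 0.55) in Dio3-/- hearts. The Y-linked genes *Kdm5d*, *Eif2s3y*, *Uty* and *Ddx3y* had CVs between 1.03 and 1.46. Transcripts of both sexes were thus read in both genotypes, and no test accounted for sex. Cardiomyocyte markers were abundant, with a summed level over 7 genes of 5961 RPKM with DIO3 and 6961 RPKM without it. The thyroid hormone-responsive genes *Art3*, *Dbp*, *Gpd2*, *Hr* and *Klf9*, which the study names as regulated by the hormone and some of which it also singled out in these hearts, so that they are no independent evidence, all rose in Dio3-/- hearts, by 0.35 to 2.01 on the log2 scale (limma adjusted p = 5.7e-06 to 0.00781). *Hr*, at 0.33 RPKM with and 1.23 RPKM without DIO3, entered the test only through its Dio3-/- level.

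None of the 9 tested genes passed the test between genotypes. By limma's moderated test with Benjamini-Hochberg adjustment over all tested rows, 0 of 9 had a row with an adjusted p under 0.05, where 2.59% of all tested genes did (379 of 14657). At an unadjusted p under 0.05 there were 3 of 9, *Cdkn2d* and *Cdkn2c* with higher means and *Cdkn1c* with a lower mean in Dio3-/- hearts, where 19.7% of all tested genes reached that level (2883 of 14657). The unmoderated test with unequal variances that the study's methods name, calculated from the same means and CVs, gave 0 of 9 after adjustment. Only 32 genes in all passed it, and its lowest adjusted p for a member was 0.172. Before adjustment it gave 1 of 9, and the share of all tested genes at that level was not counted for this test. Differences are given as Dio3-/- minus Dio3+/+ in log2(RPKM + 0.5), a scale that understates the change of low genes. Hearts were bulk samples, so fewer cells of a type and less RNA per cell cannot be told apart, and the p-values measure the spread among these hearts alone.

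Levels in RPKM, which are per length and so can be compared between genes, stood in the same order in both genotypes. *Cdkn1c* was the highest, followed by *Ccnd3*, *Ccnd2*, *Ccnd1*, *Cdkn1b*, *Meis1*, *Cdkn2d*, *Cdkn1a*, *Cdkn2c* and *Cdkn2a*. In Dio3+/+ hearts the gap between *Cdkn1b* and *Meis1* (3.38 RPKM) and that between *Cdkn2d* and *Cdkn1a* (1.15 RPKM) did not exceed the larger SD of the pair. Every other gap, and every gap in Dio3-/- hearts, did exceed it.

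**Figure D1:**
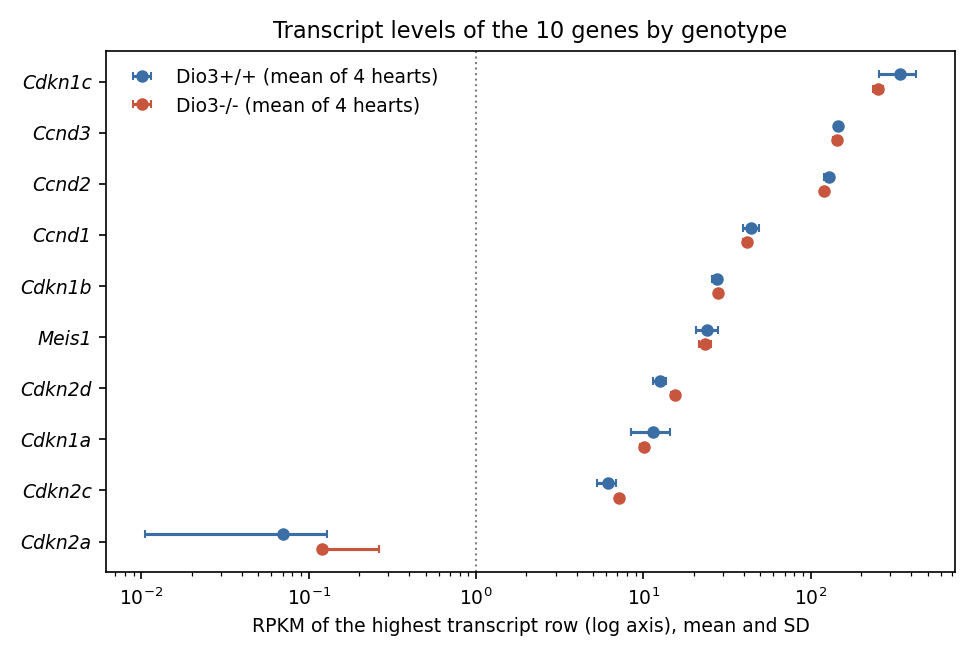
Mean transcript level in RPKM (horizontal log axis) of the highest row of each of the 10 genes in 4 Dio3+/+ hearts (blue) and 4 Dio3-/- hearts (red), with bars of 1 SD calculated from the deposited CV. Levels run from 342.23 RPKM for *Cdkn1c* down to 0.07 RPKM for *Cdkn2a*, the only gene left of the dotted line at 1 RPKM; the lower bar of *Cdkn2a* in Dio3-/- hearts is not drawn because its SD exceeded its mean.

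Among the CIP/KIP inhibitors, *Cdkn1c* made up most of the transcript. *Cdkn1c* encodes p57, is imprinted and is active from the maternal allele. The Dio3+/+ hearts averaged 342.23 RPKM (SD 85.6, CV 0.25, n = 4) and the Dio3-/- hearts 252.33 RPKM (SD 17.7, CV 0.07, n = 4). The mean was thus lower without DIO3, by an amount (a difference of -89.9 RPKM) close to the SD of the Dio3+/+ hearts, which was the larger of the 2 SDs. The log2 difference was -0.44 (SE 0.15, 95% interval -0.78 to -0.09, 0.738-fold), with an unadjusted p of 0.0178 and an adjusted p of 0.16 in limma's moderated test. The 95% interval, which is not adjusted for the number of rows, excluded 0, but the adjusted test was not passed. The other 2 rows of the gene gave nearly the same difference (-0.44 and -0.43, adjusted p = 0.161 and 0.162 in limma), although one of them was read at only 100.68 RPKM in Dio3+/+ hearts. Rows of a gene share reads and are not separate evidence.

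*Cdkn1a*, which encodes p21 and is the best known target of p53, was low and as unevenly spread. Its level was 11.4 RPKM (SD 2.97, CV 0.26, n = 4) with DIO3 and 10.1 RPKM (SD 0.505, CV 0.05, n = 4) without it. The difference in means was smaller than the Dio3+/+ SD, with a log2 difference of -0.17 (SE 0.15, 95% interval -0.51 to 0.17) and a limma adjusted p of 0.591. Its other 2 rows gave -0.17 as well. The interval in fold terms ran from 0.702 to 1.12.

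*Cdkn1b* encodes p27, an inhibitor that is abundant in cells that have left the cycle. Dio3+/+ hearts averaged 27.6 RPKM (SD 1.65, CV 0.06, n = 4), and Dio3-/- hearts 28.1 RPKM (SD 1.4, CV 0.05, n = 4). These means differed by less than 1 SD of either genotype. The log2 difference was 0.03 (SE 0.06, 95% interval -0.10 to 0.15, limma adjusted p = 0.855), and it became -0.01 once both genotypes were centred on the median ratio of all tested rows. The second row, at 16.5 and 17.2 RPKM, gave 0.06 (limma adjusted p = 0.592).

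As a family the CIP/KIP genes summed to 381.23 RPKM in the Dio3+/+ means and to 290.49 RPKM in those of Dio3-/-, a ratio of 0.762 that is a description of the means with no test. *Cdkn1c* contributed 89.8% and 86.9% of these sums, *Cdkn1b* 7.23% and 9.66%, and *Cdkn1a* 3% and 3.47%. The lower sum was therefore almost wholly that of *Cdkn1c*.

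Markers of connective tissue and of macrophages also had larger CVs in Dio3+/+ than in Dio3-/- hearts, as *Cdkn1c* and *Cdkn1a* did, but without values of single hearts it cannot be said whether the same hearts were high or low. Over 7 fibroblast and cushion mesenchyme markers the CV was 0.13 to 0.55 in Dio3+/+ hearts (median 0.42) and 0.01 to 0.11 in Dio3-/- hearts (median 0.04). Their summed level was 783.64 RPKM with and 683.53 RPKM without DIO3, the median log2 difference was -0.28, and 0 of 7 passed the test (0 at an unadjusted p under 0.05). The shares over all tested genes were 2.59% and 19.7% in limma's test. The 3 macrophage markers tested had CVs of 0.22 to 0.34 in Dio3+/+ and 0.01 to 0.07 in Dio3-/- hearts, and the 5 such markers in the table summed to 14.7 and 13.6 RPKM. Among the mesenchyme markers, the highest difference was that of *Tcf21*, an epicardial and fibroblast transcription factor (0.13), and the lowest that of *Sox9*, a cushion and cartilage factor, at 31.2 RPKM (CV 0.46) against 24.2 RPKM (CV 0.07), which is -0.36. Whether either kind of cell has a part in the difference of *Cdkn1c* was not tested. The larger Dio3+/+ CV was not particular to these markers. The median CV was 0.15 in Dio3+/+ and 0.07 in Dio3-/- hearts for cardiomyocyte markers, and 0.08 and 0.04 for endothelial markers. It was smaller in Dio3+/+ hearts for epicardial (0.07 and 0.08) and erythroid markers (0.32 and 0.515). Of the 10 genes, 8 had the larger CV in Dio3+/+ hearts, as did 65.4% of all tested genes.

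**Figure D2:**
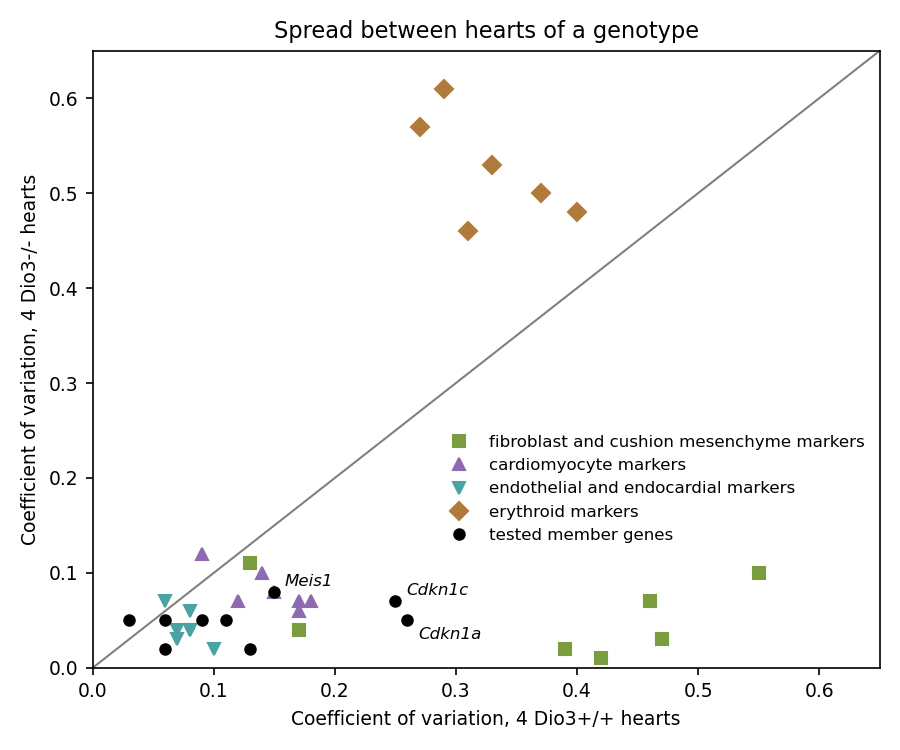
CV between the 4 Dio3-/- hearts (vertical axis) against CV between the 4 Dio3+/+ hearts (horizontal axis), with no unit, for the 9 tested genes (black) and for markers of 4 cell types; the line marks equal CVs. *Cdkn1a* (0.26 and 0.05) and *Cdkn1c* (0.25 and 0.07) lie to the right of the other tested genes, 5 of 7 mesenchyme markers lie farther right, and the erythroid markers lie above the line.

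The 2 INK4 genes that were tested, *Cdkn2d* and *Cdkn2c*, had higher means in Dio3-/- hearts. *Cdkn2d*, which encodes p19Ink4d, averaged 12.6 RPKM (SD 1.13, CV 0.09, n = 4) in hearts with DIO3 and 15.5 RPKM (SD 0.775, CV 0.05, n = 4) in those without. The gap of 2.91 RPKM exceeded both SDs, and the gene came closer to the threshold than any other of the 9. The log2 difference was 0.29 (SE 0.07, 95% interval 0.13 to 0.44, 1.22-fold), with an unadjusted p of 0.00203 and an adjusted p of 0.0622 in limma's moderated test. The adjusted p was 0.0499 where only rows with a mean above 5 RPKM over all hearts were tested, and also where rows with a CV above 0.5 were left out, and it reached 0.172 with the unequal-variance test. The other rows of *Cdkn2d* gave 0.31 (limma adjusted p = 0.0574) and 0.32 (limma adjusted p = 0.0539). The last of them stands away from the others in the table, among chemokine receptor genes, and the table gives no coordinates by which to place it.

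*Cdkn2c*, which encodes p18Ink4c, averaged 6.12 RPKM (SD 0.796, CV 0.13, n = 4) in the Dio3+/+ group and 7.17 RPKM (SD 0.143, CV 0.02, n = 4) in the Dio3-/- group. The gap of 1.05 RPKM exceeded both SDs. The log2 difference was 0.21 (SE 0.08, 95% interval 0.03 to 0.40, 1.16-fold), with an unadjusted p of 0.0293 and an adjusted p of 0.207 in limma's moderated test. The second row, at 5.04 and 5.66 RPKM, had a smaller difference of 0.15 (95% interval -0.05 to 0.36, limma adjusted p = 0.422).

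*Cdkn2a* encodes p16Ink4a and, from an upstream first exon and another reading frame, Arf, which stabilises p53. Its higher row averaged 0.07 RPKM (CV 0.85, n = 4) with DIO3 and 0.12 RPKM (CV 1.2, n = 4) without it, and its other row 0.06 RPKM (CV 0.85) and 0.05 RPKM (CV 0.49). Both rows were far below the limit of 1 RPKM and were not tested. Without that limit the log2 differences were 0.12 and -0.03 (limma adjusted p = 0.748 and 0.888), on values too low for a difference to be read from them.

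The INK4 sum was 18.8 RPKM with and 22.8 RPKM without DIO3, a ratio of 1.21 given as a description. *Cdkn2d* held 67% and 68% of it, *Cdkn2c* 32.6% and 31.5%, and *Cdkn2a* 0.373% and 0.527%.

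The promoters of the least and of the most expressed INK4 gene are shown because *Cdkn2a* was close to undetected in these hearts while *Cdkn2d*, a gene of the same family, was read at more than 12 RPKM. Sequences are the 250 bases before the start of transcription in RefSeq on GRCm38.p6, 5′ to 3′ on the gene's strand, which is the minus strand for all 3, with the GC box GGGCGG or its reverse complement CCGCCC in capitals. They lie at chr9:21291210-21291459 for *Cdkn2d*, at chr4:89294620-89294869 for the upstream *Cdkn2a* start and at chr4:89282193-89282442 for the downstream *Cdkn2a* start.
Cdkn2d: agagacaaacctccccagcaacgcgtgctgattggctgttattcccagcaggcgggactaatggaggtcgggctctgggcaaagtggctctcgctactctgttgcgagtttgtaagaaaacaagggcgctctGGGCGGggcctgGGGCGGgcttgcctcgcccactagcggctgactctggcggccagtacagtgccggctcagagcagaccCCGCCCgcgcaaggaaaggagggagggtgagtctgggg
Cdkn2a, upstream start: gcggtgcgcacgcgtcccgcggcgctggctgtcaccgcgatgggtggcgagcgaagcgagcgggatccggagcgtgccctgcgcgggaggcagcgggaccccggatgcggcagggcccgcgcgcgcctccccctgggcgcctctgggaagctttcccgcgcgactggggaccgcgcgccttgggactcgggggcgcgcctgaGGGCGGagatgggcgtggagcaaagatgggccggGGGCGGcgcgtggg
Cdkn2a, downstream start: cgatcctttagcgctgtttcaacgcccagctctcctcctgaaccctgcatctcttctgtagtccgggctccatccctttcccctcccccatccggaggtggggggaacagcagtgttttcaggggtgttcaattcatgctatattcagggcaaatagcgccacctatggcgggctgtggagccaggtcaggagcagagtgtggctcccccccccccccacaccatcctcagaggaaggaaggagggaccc
The *Cdkn2d* promoter held 3 GC boxes, had a GC content of 63.6% and 16 CpG dinucleotides. The upstream *Cdkn2a* promoter held 2 GC boxes and was richer in CpG (40, with a GC content of 78.4%), and the downstream one held 0 GC boxes, 7 CpG and a GC content of 60%. A GC box on either strand was present in 32.7% of 32851 promoters of this length, whose median GC content was 52.4%. The letters AGGTCA, the half-site bound by thyroid hormone receptors and other nuclear receptors, occurred on either strand in 14% of all promoters, in the downstream *Cdkn2a* promoter and in neither of the other 2. Of the 10 genes, 7 had 1 or more promoters in the RefSeq table (11 in all), and *Cdkn1c*, *Ccnd1* and *Ccnd2* had no entry there. The deposited table does not pair its 2 *Cdkn2a* rows with these starts, and a match of letters is a description and no evidence of binding.

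The D cyclins, which are the partners of CDK4 and CDK6 and the counterpart of the INK4 proteins, had slightly lower means in Dio3-/- hearts, and none of the differences passed the test. *Ccnd3* was the most abundant, averaging 145.25 RPKM (SD 4.36, CV 0.03, n = 4) with DIO3 and 143.09 RPKM (SD 7.15, CV 0.05, n = 4) without it. Its means differed by less than either SD, and its interval was the narrowest of the 9 genes (log2 difference -0.02, SE 0.05, 95% interval -0.13 to 0.09, 0.912- to 1.06-fold, limma adjusted p = 0.861). Of its other 4 rows, 3 were read at 130.20 to 133.83 RPKM and gave -0.01, and the remaining one, at 14.7 and 13.9 RPKM, gave -0.08 (limma adjusted p = 0.484).

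For *Ccnd2* the Dio3+/+ hearts averaged 128.55 RPKM (SD 7.71, CV 0.06, n = 4) and the Dio3-/- hearts 119.81 RPKM (SD 2.4, CV 0.02, n = 4). The difference of -8.74 RPKM was larger than either SD, though only a little larger than that of the Dio3+/+ hearts. The log2 difference was -0.10 (SE 0.05, 95% interval -0.22 to 0.01, limma adjusted p = 0.328), and the second row, at 62.2 and 55.9 RPKM, gave -0.15 (limma adjusted p = 0.278). *Ccnd1* averaged 44.3 RPKM (SD 4.87, CV 0.11, n = 4) with and 41.7 RPKM (SD 2.09, CV 0.05, n = 4) without DIO3, a gap smaller than the Dio3+/+ SD. Its log2 difference was -0.08 (SE 0.08, 95% interval -0.26 to 0.09, limma adjusted p = 0.607), with -0.09 in its second row.

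The D cyclin sum was 318.07 RPKM with and 304.61 RPKM without DIO3 (ratio 0.958), and its make-up was alike in both. *Ccnd3* held 45.7% and 47%, *Ccnd2* 40.4% and 39.3%, and *Ccnd1* 13.9% and 13.7%. As descriptions of the means with no test, there were 16.9 units of D cyclin transcript per unit of INK4 transcript in Dio3+/+ and 13.4 in Dio3-/- hearts, and 0.834 and 1.05 units per unit of CIP/KIP transcript. The first ratio was lower and the second higher in Dio3-/- hearts, the second resting on *Cdkn1c*.

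*Meis1*, a homeobox factor of the TALE class, averaged 24.2 RPKM (SD 3.63, CV 0.15, n = 4) with DIO3 and 23.5 RPKM (SD 1.88, CV 0.08, n = 4) without it. The means differed by less than either SD. The log2 difference was -0.04 (SE 0.10, 95% interval -0.27 to 0.19, limma adjusted p = 0.883), and in fold terms the interval ran from 0.831 to 1.14. The other 3 rows, with Dio3+/+ means from 11.0 to 23.5 RPKM, gave -0.03 or -0.04. A fold change beyond that interval in either direction lay outside what these hearts allow at 95%, while smaller ones could not be told from none.

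**Figure D3:**
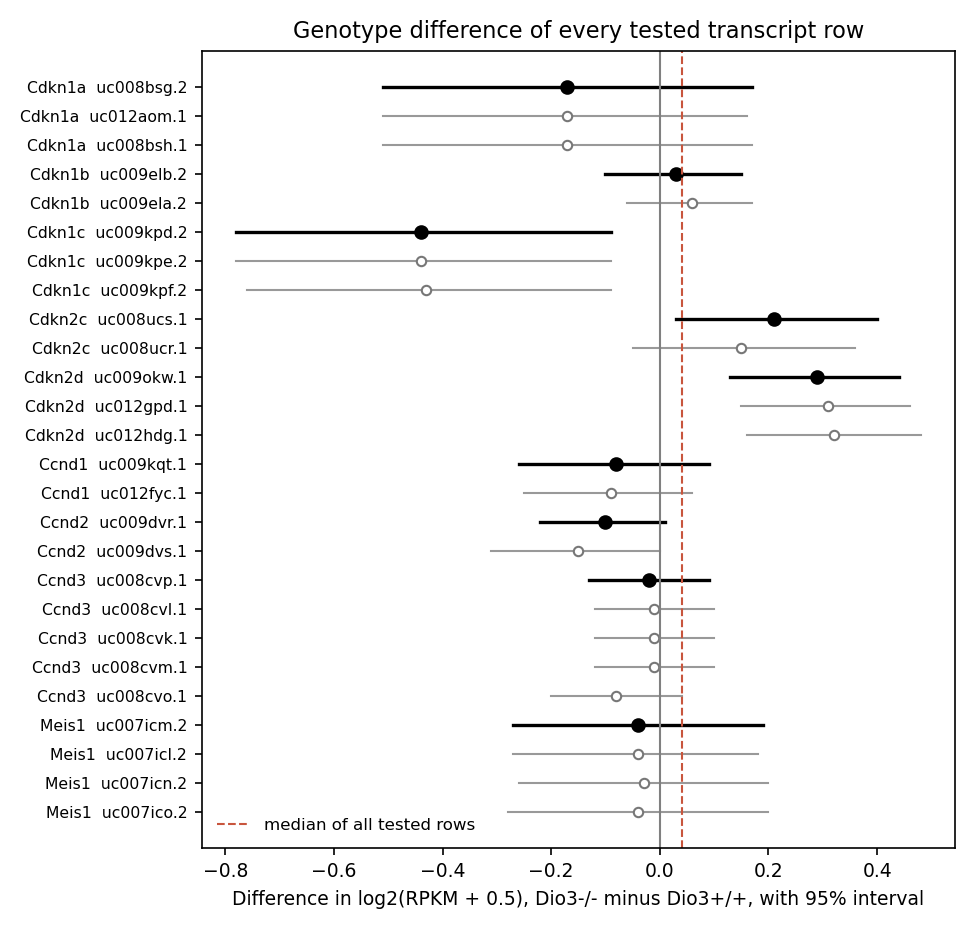
Difference in log2(RPKM + 0.5), Dio3-/- minus Dio3+/+, with its 95% interval (horizontal axis) for each of the 26 tested rows, labelled by gene and transcript; black points are the highest row of a gene and the dashed line is the median of all tested rows (0.04). Rows of *Cdkn1c* lie lowest (-0.44 and -0.43) and rows of *Cdkn2d* highest (0.29 to 0.32), and the rows of a gene lie close together.

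By mean, 4 of the 10 genes were above and 6 below their Dio3+/+ level in Dio3-/- hearts, whereas 63.3% of all tested genes were higher. The median log2 difference was -0.04 over the 9 tested genes and 0.04 over all tested genes. Centring both genotypes on that common shift put *Cdkn1b* among the lower genes and left the direction of the other tested genes as it was.

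Of 12 CDK and other cyclin genes, 0 passed the adjusted test (5 at an unadjusted p under 0.05), 7 were higher and 5 lower by mean, and the median log2 difference was 0.06. Over all tested genes, 19.7% had an unadjusted p under 0.05 in limma's test and 63.3% were higher by mean. The highest was *Ccnb2*, a mitotic cyclin, at 49.1 RPKM (CV 0.05) with and 55.7 RPKM (CV 0.07) without DIO3 (0.18, limma adjusted p = 0.145). The lowest was *Cdk4*, the kinase bound by D cyclins and INK4 proteins, at 204.35 and 196.52 RPKM (-0.06, limma adjusted p = 0.701).

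Of 13 genes of the retinoblastoma and E2F families, 1 rose and 0 fell at the adjusted level. By mean 9 were higher and 4 lower, and 3 had an unadjusted p under 0.05 in limma's test. The shares over all tested genes were 2.59% past the adjusted threshold, 63.3% higher by mean and 19.7% at that unadjusted level. *E2f1*, which activates genes for S phase, rose from 9.21 RPKM (CV 0.02) in Dio3+/+ to 10.8 RPKM (CV 0.03) in Dio3-/- hearts (log2 difference 0.22, SE 0.05, limma adjusted p = 0.0437). This call was lost (adjusted p in parentheses) without the expression filter (0.0597), without the mean-variance trend (0.0532), with the unequal-variance test (0.0768), after centring (0.0938) and with CVs raised by 0.005 (0.0734). The study's own list of genes that differ, drawn by its q values, nevertheless holds *E2f1*. It also holds *E2f6*, which had a higher mean in Dio3-/- hearts but did not pass here (0.15, limma adjusted p = 0.0749). The lowest difference was that of *E2f2*, at 6.78 RPKM (CV 0.18) and 5.23 RPKM (CV 0.31), which is -0.35 (limma adjusted p = 0.383).

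*Cdkn3*, which carries the name of a CDK inhibitor but encodes a phosphatase that acts on CDK2, rose in Dio3-/- hearts. Dio3+/+ hearts averaged 15.9 RPKM (CV 0.06, n = 4) and Dio3-/- hearts 20.3 RPKM (CV 0.04, n = 4), with a log2 difference of 0.35 (SE 0.06, limma adjusted p = 0.0164). Over the alternatives tried it lost the call with the unequal-variance test alone (adjusted p = 0.0768). The study's own list of genes that differ holds *Cdkn3* as well. *Cdkn2b*, the remaining INK4 gene, was at 0.43 and 0.36 RPKM and was not tested.

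Of 9 genes for the turnover of inhibitors and D cyclins, 0 passed the test (1 at an unadjusted p under 0.05) and the median was 0.04. For these and the TALE genes below, the shares of all tested genes were 2.59% at the adjusted and 19.7% at the unadjusted level in limma's test. *Fbxo31*, an F-box protein for cyclin D1, was highest (5.35 and 6.26 RPKM, 0.21, limma adjusted p = 0.22). *Skp2*, the F-box protein for p27, was lowest (14.1 RPKM with CV 0.27 and 12.5 RPKM with CV 0.11, -0.17, limma adjusted p = 0.645). Among 9 TALE genes and partners of MEIS1, 7 were tested and 0 passed at an adjusted or unadjusted level, with a highest difference of 0.06 for *Pbx3*, which encodes a partner of MEIS factors (limma adjusted p = 0.586).

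Markers of S phase and mitosis all had higher means in Dio3-/- hearts without any of them passing limma's adjusted test. The study's own list of genes that differ does hold 1 of them, *Cdc20* (here 0.15, limma adjusted p = 0.182). Of all tested genes, 63.3% had higher means. Of 14 genes, 0 passed the adjusted test and 8 had an unadjusted p under 0.05 in limma's test, where 19.7% of all tested genes did. The median log2 difference was 0.14 beside 0.04 over all tested genes, and 13 of 14 remained higher after centring, with a median of 0.10. *Bub1*, a spindle checkpoint kinase, was highest (17.7 RPKM with CV 0.03 and 20.4 RPKM with CV 0.05, 0.19, limma adjusted p = 0.0749). *Mcm4*, a subunit of the replicative helicase, was lowest (38.6 and 39.6 RPKM, 0.03, limma adjusted p = 0.865) and turned to the other direction on centring.

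**Figure D4:**
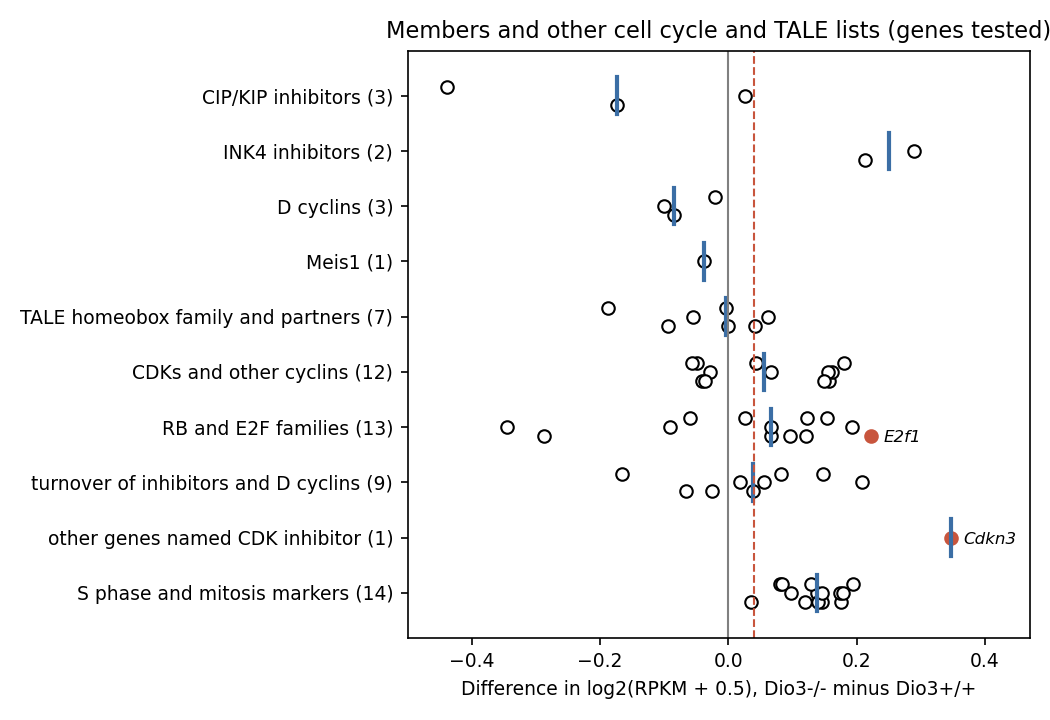
Difference in log2(RPKM + 0.5), Dio3-/- minus Dio3+/+ (horizontal axis), of each tested gene in the families described and in related lists, with the number tested in parentheses; blue bars are list medians, filled points have an adjusted p under 0.05 and the dashed line is the median of all tested rows (0.04). *E2f1* (0.22) and *Cdkn3* (0.35) are the only filled points, and all 14 S phase and mitosis markers lie right of 0.

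Markers of the heart's cell types are given beside these values, and their part in them was not tested. Over all tested genes, 2.59% passed, 19.7% had an unadjusted p under 0.05 in limma's test and 63.3% had higher means. Cardiomyocyte markers had higher means in 7 of 7 genes, and 1 rose, *Ryr2*, the calcium release channel, from 24.2 RPKM (CV 0.15) to 36.6 RPKM (CV 0.08), by 0.59 on the log2 scale (limma adjusted p = 0.0231), the lowest being *Tnnt2*, cardiac troponin T (0.08, limma adjusted p = 0.765). Endothelial markers (7 tested, 0 passed, 2 at an unadjusted p under 0.05) ranged from 0.01 for *Emcn* to 0.16 for *Tek*, and epicardial markers (5 tested, 0 passed, 1 unadjusted) from -0.06 for *Msln* to 0.23 for *Wt1*. Erythroid markers were lower in 6 of 6 genes, with a summed level of 37274 RPKM with and 12746 RPKM without DIO3. The embryonic globin *Hbb-bh1* fell, from 317.82 RPKM (CV 0.31) to 110.93 RPKM (CV 0.46), which is -1.51 (limma adjusted p = 0.0468), while *Hbb-y* (-1.55, limma adjusted p = 0.0751) did not pass. The *Hbb-bh1* call lay close to the threshold and was not followed over the alternatives.

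Markers of liver and skeletal muscle, tissues outside the heart, were mostly uneven between hearts, and macrophage and neural markers are given beside them. Their counts stand beside the 19.7% of all tested genes with an unadjusted p under 0.05 in limma's test. Hepatocyte markers summed to 22.9 RPKM with and 123 RPKM without DIO3, had CVs up to 1.41 and 1.26 and ranged from 1.11 for *Trf* to 3.01 for *Afp*, and 0 of 8 passed (8 at an unadjusted p under 0.05). Skeletal muscle markers summed to 15.6 and 1.78 RPKM, and the tested ones were *Myog* (-2.62) and *Myod1* (-2.36), with CVs of 1.56 and 1.62 in Dio3+/+ hearts and neither passing (both had an unadjusted p under 0.05). The hepatocyte markers *Ttr* and *Fgb* exceeded 1 RPKM in Dio3-/- hearts alone, and *Myod1* did so in Dio3+/+ hearts alone. Macrophage markers (3 tested, 0 passed at either level) ranged from -0.18 for *Emr1* to -0.06 for *Csf1r*. Of the neural markers tested, *Tubb3*, a neuronal tubulin, rose to 3.54 RPKM in Dio3-/- hearts (0.65, limma adjusted p = 0.00856), and the defining genes *Sox10* and *Th* were under 1 RPKM in both genotypes.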

How the data were processed

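Total RNA of 4 Dio3+/+ and 4 Dio3-/- fetal hearts was depleted of ribosomal RNA and sequenced, and per the labels reads were checked with FastQC and aligned with NovoAlign 2.08. The genome build is not given in the sources used here. The authors deposited 1 table with the mean RPKM of each genotype for every transcript and the coefficient of variation between its hearts, a ratio of SD to mean rounded to 0.01. The name RPKM comes from the study's description of coverage per length and depth. The table's fold change, p and q columns hold the authors' own comparison and were not used. Rows whose mean exceeded 1 RPKM in either genotype were tested with limma 3.58.1 in R 4.3.3. Means and variances of log2(RPKM + 0.5) were derived from each mean and CV, variances were moderated with a mean-variance trend (6 residual and 3.52 prior degrees of freedom), tests were two-sided, and Benjamini-Hochberg adjustment covered 32703 rows. The calculation was checked on simulated data with equal spread in both genotypes and planted changes larger than those of the members. Unequal spread, as in *Cdkn1c* and *Cdkn1a*, was not covered by that check. SDs carry the rounding of the CV. The table holds no read totals, so no depth is given per sample. Welch's test, the unequal-variance test of the study's methods, was run as an alternative. Every member gene is named, and from each other list every gene past the threshold and those with the highest and lowest difference. *E2f6* and *Cdc20* are named as well because the study's own list holds them, and *Ttr* and *Fgb* because of the expression filter. A few genes that this rule would name are not reported here. Members and lists were chosen with earlier results of these data known. Promoters were read with Python 3.11.15 and plots drawn with matplotlib 3.10.9. Alternatives were another pseudocount (0.1 or 1), filter, test, scaling, variance trend or row, and CVs raised by 0.005.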

Additional observations from a re-analysis of the deposited data

How the results depend on the processing

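Of 107 alternatives run over the 9 tested genes, 104 kept direction and side of the threshold. Only centring or another row of a gene could turn its direction, because the other settings use the same genotype means. The number of these genes past the threshold, 0, became 1 where only rows with a mean above 5 RPKM over all hearts were tested and 1 without rows with a CV above 0.5. In both it was *Cdkn2d*, at 0.29 with an adjusted p of 0.0499. Both settings test fewer rows, and the cause was not tested further. *Cdkn1b* turned from 0.03 to -0.01 (limma adjusted p = 0.951) when genotypes were centred on the median ratio, which takes 0.04 from every difference. Over the alternatives the adjusted p ranged from 0.556 to 0.739 for *Cdkn1a*, 0.592 to 0.951 for *Cdkn1b*, 0.128 to 0.461 for *Cdkn1c*, 0.179 to 0.422 for *Cdkn2c*, 0.0499 to 0.172 for *Cdkn2d*, 0.499 to 0.713 for *Ccnd1*, 0.228 to 0.426 for *Ccnd2*, 0.484 to 0.915 for *Ccnd3* and 0.779 to 0.91 for *Meis1* (limma, and Welch's test among the alternatives). Over all genes, 703 rows and 379 genes passed in limma's test, against 431 rows and 221 genes without the expression filter, 62 and 32 with Welch's test, 394 and 197 after centring, 414 and 206 with CVs raised by 0.005, and 319 rows with 1 row per gene, and against more, 811 rows and 429 genes, with a mean above 5 RPKM and 1052 rows and 555 genes without rows with a CV above 0.5, the settings under which *Cdkn2d* passed. The counts for Welch's test come from rounded means and CVs, and the study's own comparison lists more genes than they do. No paired analysis was possible because the table holds genotype means and no values of single hearts, and for the same reason no heart could be left out in turn.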
